A study of Mus musculus with 15 samples.

Results

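Oligodendrocyte precursor cells (OPCs) carry a set of surface and secreted proteins by which they are recognised, and the 10 genes described here encode that set: Pdgfra, Cspg4, Ptprz1, Lhfpl3, C1ql1, Matn4, Vcan, Cspg5, Gpr37l1 and Pcdh15. They were matched by symbol among the 45706 genes listed for each of 15 mouse libraries, and all 10 were found in every library. In the brain, OPCs divide under platelet-derived growth factor (PDGF), which they sense through the receptor encoded by Pdgfra, and they are coated with chondroitin sulfate proteoglycans, core proteins that bear long sulfated sugar chains. When OPCs leave the cell cycle and become oligodendrocytes (OLs), which make myelin, PDGF receptor and the NG2 proteoglycan encoded by Cspg4 are classically lost from the surface. Several of the other markers are also made by astrocytes or remain in young OLs.

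The study asked what loss of serum response factor (SRF), a transcription factor of the actin cytoskeleton and of growth-factor responses, does to cells of this lineage in culture. OPCs were taken by immunopanning from brains of SRF-floxed/floxed mice, so every group, controls included, carried the floxed alleles, and Cre came from a virus added in the dish. The 4 SRF-KO OL libraries had a Cre-IRES-GFP lentivirus and the 4 control OL libraries a GFP lentivirus. Cells of both OL groups were plated on day 5 after isolation, infected on day 6 and frozen on day 3 in differentiation medium. The 3 SRF-KO OPC libraries had an adeno-associated virus (AAV) with eGFP-cre under the CMV promoter and the 4 control OPC libraries the same virus with a deleted cre. Cells of both OPC groups were plated and infected in proliferation medium on day 3 and frozen 48 hours after infection. The treatment tag of the SRF-KO OLs names the Cre virus but ends in the word control, and the groups follow the sample titles. The labels do not say whether replicates came from separate animals or cultures, so the p-values measure only the spread between these libraries. Cre in cells without floxed alleles was not analysed here, so Cre itself and SRF loss cannot be told apart.

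The libraries held 4303739 to 11721394 expected counts in SRF-KO OLs, 7188698 to 13139258 in control OLs, 9074812 to 15125229 in SRF-KO OPCs and 8964310 to 16026511 in control OPCs. Srf had 2.37 to 4.54 CPM, expected counts scaled to a common library total, in SRF-KO OLs and 6.61 to 8.47 in control OLs. It had 0.198 to 0.220 CPM in SRF-KO OPCs and 5.49 to 9.82 in control OPCs. On the first principal component of their stage, SRF-KO OL replicate 4 lay at 80.5 against -18.8 to 0.448 for the other OLs, and SRF-KO OPC replicate 2 at 47.6 against -23.0 to 6.01 for the other OPCs. Mitochondrial genes held 14.2% of the counts in SRF-KO OL replicate 4 against 9.08% to 11.6% in the other OLs, and 4.65% to 5.73% in OPCs; the part of this share in the differences between libraries and stages was not tested. Some results are also given without the libraries that stand apart, and the others include them. The gene lengths listed in the OPC files are spliced lengths, and those in the OL files are whole gene bodies with introns: among 8995 single-transcript genes with introns, 89.8% matched the spliced length in OPC files and 90.0% the genomic span in OL files, to the base. Comparisons of SRF-KO with control within a stage are free of this difference, and comparisons of OLs with OPCs are not. Summed over 12 astrocyte markers, the level was 10000.4 to 15972 normalised CPM in SRF-KO OLs and 19892 to 38392 in control OLs, against 2005 to 2315 in SRF-KO OPCs and 1909 to 1974 in control OPCs. Gfap made up most of it in OLs, with 5017 to 9644 CPM in SRF-KO OLs and 13592 to 30476 in control OLs. Gjb6 was the only one of the 12 at 0 in all OPC libraries. Others were abundant in OPCs: Slc1a3 had 697 to 825 CPM in SRF-KO OPCs and 618 to 687 in control OPCs. Sox9 had 335 to 426 CPM in SRF-KO OPCs and 439 to 529 in control OPCs, above its levels in OLs. The microglia marker Csf1r, chosen after its values were seen, had 0.552 to 1.89 CPM in SRF-KO OLs and 0.564 to 1.67 in control OLs. Of 12 microglia markers, 10 were at 0 in every SRF-KO OPC library and 9 in every control OPC library. In OLs, 0 of the 12 were at 0 in every library of either group. Of the 12, 4 were under 1 CPM in every SRF-KO OL library and 5 in every control OL library. Endothelial markers did not exceed 9.31 CPM and fibroblast and mural markers did not exceed 10.1 CPM, summed, in any library. Neuron markers summed to 309 to 338 CPM in SRF-KO OLs and 312 to 323 in control OLs. In OPCs they summed to 429 to 473 CPM with the knockout and 500 to 550 in controls, most of it Map2 (368 to 410 and 432 to 483). In a bulk library, fewer cells of a type and less RNA per cell cannot be told apart.

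All 10 markers are protein-coding. On GRCm38, with GENCODE M21 coordinates, the membrane proteins are Pdgfra at chr5:75152292-75198215 (plus strand), Cspg4 at chr9:56865033-56899870 (plus), Ptprz1 at chr6:22875502-23052916 (plus), Cspg5 at chr9:110243783-110262576 (plus), Gpr37l1 at chr1:135160234-135167681 (minus), Lhfpl3 at chr5:22746059-23275597 (plus) and Pcdh15 at chr10:73099342-74649737 (plus). The secreted proteins are C1ql1 at chr11:102939264-102946688 (minus), Matn4 at chr2:164389393-164405160 (minus) and Vcan at chr13:89655312-89742509 (minus). Reads are not stranded, so a gene that overlaps a marker on the other strand can share its reads. Rbpjl, which overlaps exons of Matn4, was listed at 1.30 to 2.14 CPM in SRF-KO OLs and 2.01 to 2.82 in control OLs, and at no more than 0.346 in OPCs. A930003O13Rik, which overlaps an exon of Lhfpl3, was listed at 42.0 to 50.8 CPM in SRF-KO OLs and 63.0 to 74.6 in control OLs. Gm26668, which overlaps C1ql1 without sharing an exon, was listed at 10.1 to 13.5 CPM in SRF-KO OLs and 14.5 to 22.6 in control OLs.

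The 250 bases upstream of the annotated start are shown for the marker that passed the knockout test (Matn4, with its 2 annotated starts) and for the markers with a strong fall and the strongest rise between the stages (Pdgfra and Gpr37l1). They are RefSeq sequences on GRCm38.p6, and lie at chr2:164405161-164405410 (minus strand) and chr2:164404819-164405068 (minus), both of which overlap exons of a Rbpjl transcript on the plus strand, at chr5:75152001-75152250 (plus) and at chr1:135167682-135167931 (minus). Capitals mark a GC box (GGGCGG, or CCGCCC on the other strand), a site class bound by SP factors.
Matn4 outer start: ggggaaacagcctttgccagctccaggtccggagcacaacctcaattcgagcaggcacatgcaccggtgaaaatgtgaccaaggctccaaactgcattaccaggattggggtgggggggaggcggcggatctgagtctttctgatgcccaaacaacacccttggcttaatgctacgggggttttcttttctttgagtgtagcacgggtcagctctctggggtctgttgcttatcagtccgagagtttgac
Matn4 inner start: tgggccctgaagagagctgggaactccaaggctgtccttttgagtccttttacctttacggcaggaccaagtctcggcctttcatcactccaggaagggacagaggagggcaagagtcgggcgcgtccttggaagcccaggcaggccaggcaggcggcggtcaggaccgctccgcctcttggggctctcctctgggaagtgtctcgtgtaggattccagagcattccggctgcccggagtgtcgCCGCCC
Pdgfra: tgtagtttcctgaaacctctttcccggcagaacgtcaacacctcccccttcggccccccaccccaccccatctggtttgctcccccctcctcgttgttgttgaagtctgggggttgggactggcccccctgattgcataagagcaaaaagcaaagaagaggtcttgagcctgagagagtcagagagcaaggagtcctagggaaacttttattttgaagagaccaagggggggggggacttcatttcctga
Gpr37l1: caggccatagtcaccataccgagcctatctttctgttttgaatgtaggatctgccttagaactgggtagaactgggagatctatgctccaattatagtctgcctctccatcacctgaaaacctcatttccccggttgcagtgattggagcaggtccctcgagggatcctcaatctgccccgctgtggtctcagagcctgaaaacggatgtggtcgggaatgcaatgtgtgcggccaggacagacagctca
Of the 10 markers, 8 had an entry, with 9 windows in all. The CArG box, the SRF-bound motif, was searched on both strands and found in 0 of the 9 windows, against 1.47% of 32851 upstream windows of the same length. The GC box was found in 5 windows (those of Cspg4, Lhfpl3, Ptprz1, Vcan and the inner start of Matn4), against 32.7% of all windows. AACAAT, a core of SOX sites, was in 0 of 9 windows (9.42% of all). CAGCTG, an E-box that OLIG factors can bind, was in that of Lhfpl3 (13.0% of all), and TATAAA in that of Pcdh15 (12.4% of all). A match is only these letters in this window.

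In OPCs, where per-length values rest on spliced lengths, the markers spanned a wide range of abundance. Cspg5, a transmembrane chondroitin sulfate proteoglycan also called neuroglycan C, was the most abundant per length, with 391 ± 67.9 TPM (per-length abundance in the deposited files; SD, n = 3) in SRF-KO OPCs and 424 ± 43.7 (n = 4) in control OPCs. Ptprz1, a receptor-type phosphatase that carries chondroitin sulfate, followed with 268 ± 27.9 TPM in SRF-KO OPCs and 278 ± 41.2 in control OPCs. Pdgfra had 116 ± 5.51 TPM in SRF-KO OPCs and 133 ± 11.3 in control OPCs, and Lhfpl3, a multi-pass membrane protein, had 119 ± 12.9 TPM in SRF-KO OPCs and 122 ± 9.88 in control OPCs. The libraries of these neighbours overlapped within each group. Gpr37l1, a G protein-coupled receptor reported to respond to prosaposin peptides, had 70.6 ± 10.9 TPM in SRF-KO OPCs and 75.9 ± 11.3 in control OPCs. Cspg4 had 14.8 ± 4.99 TPM in SRF-KO OPCs and 20.6 ± 3.14 in control OPCs. C1ql1, Vcan and Pcdh15 overlapped one another in control OPCs, at 10.1 to 13.7, 8.09 to 11.8 and 7.91 to 10.9 TPM, and Matn4 was the lowest at 1.50 to 3.19 TPM.

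**Figure D1:**
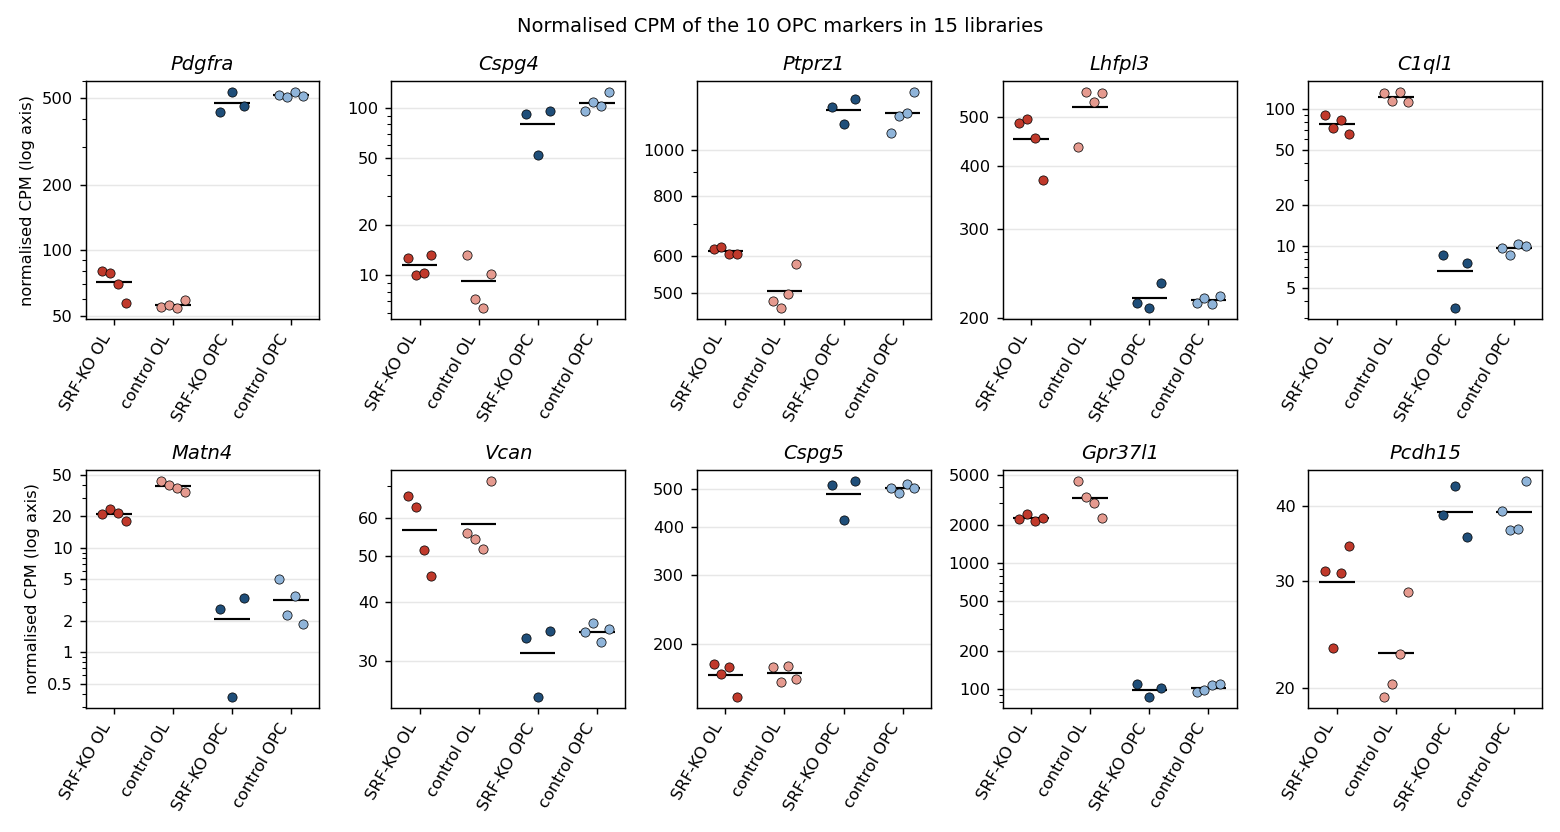
Normalised CPM (log axis, scaled by trimmed mean of M-values over the 15 libraries) of each marker in SRF-KO OLs (n = 4), control OLs (n = 4), SRF-KO OPCs (n = 3) and control OPCs (n = 4). Points are libraries in replicate order and bars are group means. Pdgfra, Cspg4, Ptprz1, Cspg5 and Pcdh15 sit lower in OLs than in OPCs and the other 5 markers higher.

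Loss of SRF in OPCs was compared first. None of the 10 markers passed the test in SRF-KO over control OPCs by edgeR's quasi-likelihood test with Benjamini-Hochberg adjustment at 0.05 over all genes tested. That test called, at this threshold, 9 of 13271 genes, or 0.0678%. Also 0 markers had an unadjusted p under 0.05, against 11.9% of all genes, and DESeq2, which called 139 genes, called 0 markers. The markers' median log2 fold change was -0.08, and that of all genes tested was -0.00.

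Pdgfra, the PDGF receptor, had 431, 534 and 461 normalised CPM in SRF-KO OPCs and 518, 506, 536 and 514 in control OPCs, so the groups overlapped and 2 of the 3 knockout libraries lay below all controls. Its log2 fold change was -0.11 ± 0.075 (SE; adjusted p = 0.571 by edgeR), and -0.18 (adjusted p = 0.489; unadjusted p = 0.0219) without SRF-KO OPC replicate 2. Ptprz1 had 1229, 1136 and 1277 CPM in SRF-KO OPCs and 1086, 1180, 1195 and 1324 in control OPCs. Its difference had a 95% interval of -0.16 to 0.23 on the log2 scale. Lhfpl3 (interval -0.15 to 0.20), Pcdh15 (-0.23 to 0.26), Cspg5 (-0.25 to 0.17) and Gpr37l1 (-0.28 to 0.21) had intervals of like width.

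Cspg4 had 92.2, 52.6 and 96.2 CPM in SRF-KO OPCs and 95.8, 108, 102 and 125 in control OPCs. Replicate 2 was the low library of the knockout, replicate 1 lay just below the lowest control and replicate 3 among the controls. The log2 fold change was -0.41 ± 0.19 (adjusted p = 0.434 by edgeR) and -0.16 without that library. C1ql1, a secreted C1q-domain protein that binds the adhesion receptor encoded by Adgrb3, had 8.64, 3.53 and 7.51 CPM in SRF-KO OPCs and 9.77, 8.67, 10.3 and 10.0 in control OPCs. In normalised CPM it was the single marker whose OPC groups did not overlap, where 12.5% of all genes had groups that did not overlap. The gap was narrow, and on library totals in place of trimmed-mean scaling the groups overlapped. SRF-KO OPC replicate 1 then had 9.59 CPM and control OPC replicate 2 had 9.23. The exact two-sided permutation p on normalised values was 0.0286 (the smallest this design allows, among the 10 markers tested so in each stage). The edgeR log2 fold change was -0.56 ± 0.28 with an adjusted p of 0.458. Without replicate 2 it was -0.22. Matn4, a matrilin that links matrix proteins, had only 6 to 34 reads in SRF-KO OPCs and 24 to 72 in control OPCs. Its log2 fold change of -0.62 ± 0.60 (adjusted p = 0.709 by edgeR) was -0.06 without replicate 2. Vcan, a large secreted proteoglycan that binds hyaluronan, had 33.7, 25.2 and 34.8 CPM in SRF-KO OPCs and 33.0 to 36.0 in control OPCs, again with replicate 2 alone below the rest. In that library Cspg4, Lhfpl3, C1ql1, Matn4, Vcan, Cspg5 and Gpr37l1 were all at their OPC minimum, while Pdgfra was the highest of the knockout libraries.

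In OLs, 1 of the 10 markers passed the test. Matn4 fell in SRF-KO OLs to 21.3, 23.4, 21.6 and 18.2 CPM, against 44.2, 40.3, 37.2 and 34.5 in control OLs. Every knockout library lay below every control. The log2 fold change was -0.85 ± 0.14 (95% interval -1.15 to -0.55; adjusted p = 0.0250 by edgeR), that is 1.81-fold lower. The comparison called 45 of 15193 genes, 0.296%, of which 35 were lower (0.23%). The call did not hold when most single libraries were left out. Its adjusted p was 0.0846, 0.0768 and 0.107 without SRF-KO OL replicates 1, 2 and 3, and 0.123, 0.104 and 0.0946 without control OL replicates 1, 2 and 3. The fold change stayed between -0.92 and -0.78 over the 8 fits. Without SRF-KO OL replicate 4 the adjusted p was 0.00471, in a fit that called 636 genes (4.12%). On library totals in place of trimmed-mean scaling, Matn4 was at -0.62 (adjusted p = 0.0935), where the median of all genes was 0.24 in place of 0.02 and the calls were 39 higher and 35 lower in place of 10 and 35.

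C1ql1 was close to Matn4 in pattern but did not pass the test. It had 89.2, 72.5, 82.2 and 65.8 CPM in SRF-KO OLs and 129, 113, 132 and 111 in control OLs, again with no overlap. In OLs the groups did not overlap for 3 markers (Matn4, C1ql1 and Ptprz1), and for 8.33% of all genes. The C1ql1 log2 fold change was -0.62 ± 0.14 with an adjusted p of 0.136 by edgeR. By DESeq2, which called 299 genes (1.97%), C1ql1 and Matn4 were both called lower, C1ql1 with an adjusted p of 0.000994. Without SRF-KO OL replicate 4, edgeR called C1ql1 at -0.58 (adjusted p = 0.0163).

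**Figure D2:**
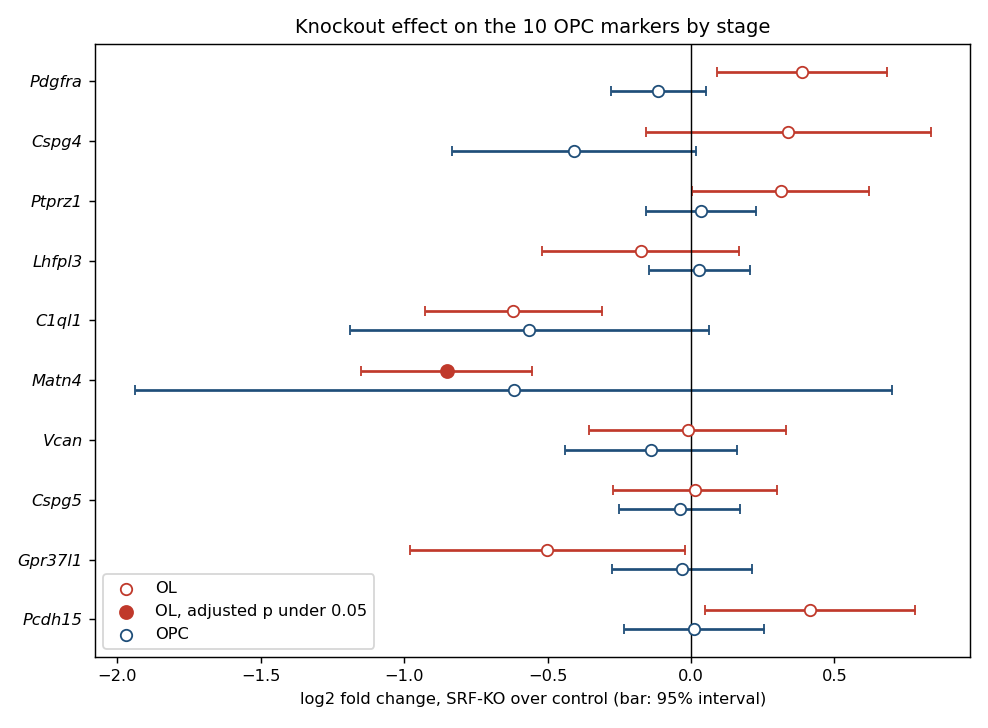
Log2 fold change of each marker, SRF-KO over control, in OLs (red, upper of each pair, 4 against 4 libraries) and in OPCs (blue, 3 against 4), with 95% intervals from edgeR. The filled point marks the one difference with an adjusted p under 0.05, Matn4 in OLs at -0.85.

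Pdgfra, Ptprz1 and Cspg4 had positive fold changes in OLs that did not pass the test. Pdgfra had 80.7, 78.6, 69.9 and 57.2 CPM in SRF-KO OLs and 54.6, 55.8, 54.1 and 59.3 in control OLs. Knockout replicates 1 to 3 lay above all controls and replicate 4 lay among them. The log2 fold change was 0.39 ± 0.13 (adjusted p = 0.298 by edgeR). Without replicate 4 it was 0.45, with an adjusted p of 0.0231, which makes Pdgfra the third marker called in that fit beside Matn4 and C1ql1. Ptprz1 had 621, 626, 605 and 606 CPM in SRF-KO OLs and 482, 465, 500 and 575 in control OLs, with no overlap. Its log2 fold change was 0.31 ± 0.14 (adjusted p = 0.427 by edgeR; exact permutation p = 0.0286). Cspg4 had 12.8, 10.0, 10.4 and 13.3 CPM in SRF-KO OLs and 13.3, 7.24, 6.36 and 10.2 in control OLs, from no more than 139 reads a library. The groups overlapped, and the log2 fold change was 0.34 ± 0.23 (adjusted p = 0.626 by edgeR).

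Pcdh15, a protocadherin known from the tip links of hair cells, had 31.2, 23.2, 30.9 and 34.3 CPM in SRF-KO OLs and 19.3, 20.3, 22.8 and 28.7 in control OLs. The groups overlapped in knockout replicate 2 and control replicate 4, and the log2 fold change was 0.42 ± 0.17 (adjusted p = 0.373 by edgeR). The groups of Vcan, Cspg5 and Lhfpl3 overlapped, with fold changes within the spread of the libraries. Vcan ranged over 45.4 to 66.7 CPM in SRF-KO OLs and 51.6 to 71.9 in control OLs, with a 95% interval of -0.36 to 0.33 for the log2 fold change. Cspg5 ranged over 146 to 177 CPM in SRF-KO OLs and 160 to 176 in control OLs, with an interval of -0.27 to 0.30. Lhfpl3 ranged over 376 to 495 CPM in SRF-KO OLs and 436 to 560 in control OLs, with an interval of -0.52 to 0.17. Over all 10 markers 6 had an unadjusted p under 0.05 in OLs, 3 in each direction, against 11.6% of all genes, and the markers' median of 0.00 stood beside 0.02 for all genes.

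**Figure D3:**
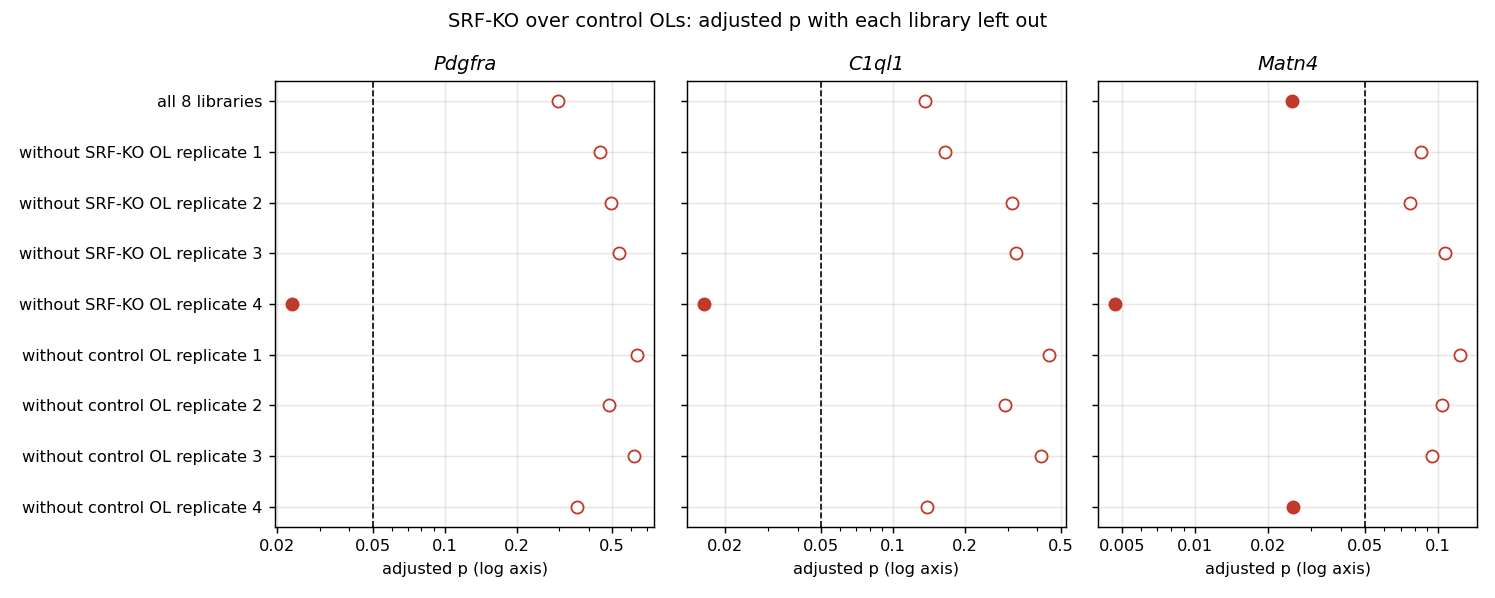
Adjusted p (log axis) of Pdgfra, C1ql1 and Matn4 in SRF-KO over control OLs, with all 8 libraries and with each left out in turn. Filled points lie under 0.05 (dashed line). Pdgfra and C1ql1 pass only without SRF-KO OL replicate 4, and Matn4 passes with all libraries, without that one and without control OL replicate 4.

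Gpr37l1 had 2241, 2443, 2185 and 2296 CPM in SRF-KO OLs and 4531, 3386, 2990 and 2299 in control OLs. Control replicates 1 to 3 lay above all knockout libraries and control replicate 4 lay among them. The log2 fold change was -0.50 ± 0.22 (adjusted p = 0.409 by edgeR) and -0.31 without control replicate 1. Gpr37l1 is also an astrocyte gene, and the summed astrocyte markers were likewise highest in control OL replicate 1, at 38392 CPM, and lowest among controls in replicate 4, at 19892. The 4 SRF-KO OLs had sums of 15404, 15972, 13599 and 10000.4 CPM. The order among control OLs was not particular to astrocyte markers: myelin genes summed to 15241.5 to 22681 CPM in SRF-KO OLs and 23543 to 43022.5 in control OLs, and newly formed OL genes to 3346 to 4088 CPM in SRF-KO OLs and 5161 to 7759 in control OLs, both with the highest sum in control replicate 1 and the lowest of the controls in replicate 4. Matn4 and C1ql1 were lower in SRF-KO OLs, in which all of these sums were lower. Of the 12 astrocyte markers 0 passed the edgeR test in SRF-KO over control OLs, and 11 had a negative fold change. The part of any of these lists in the differences of Gpr37l1, Matn4 and C1ql1 was not tested.

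**Figure D4:**
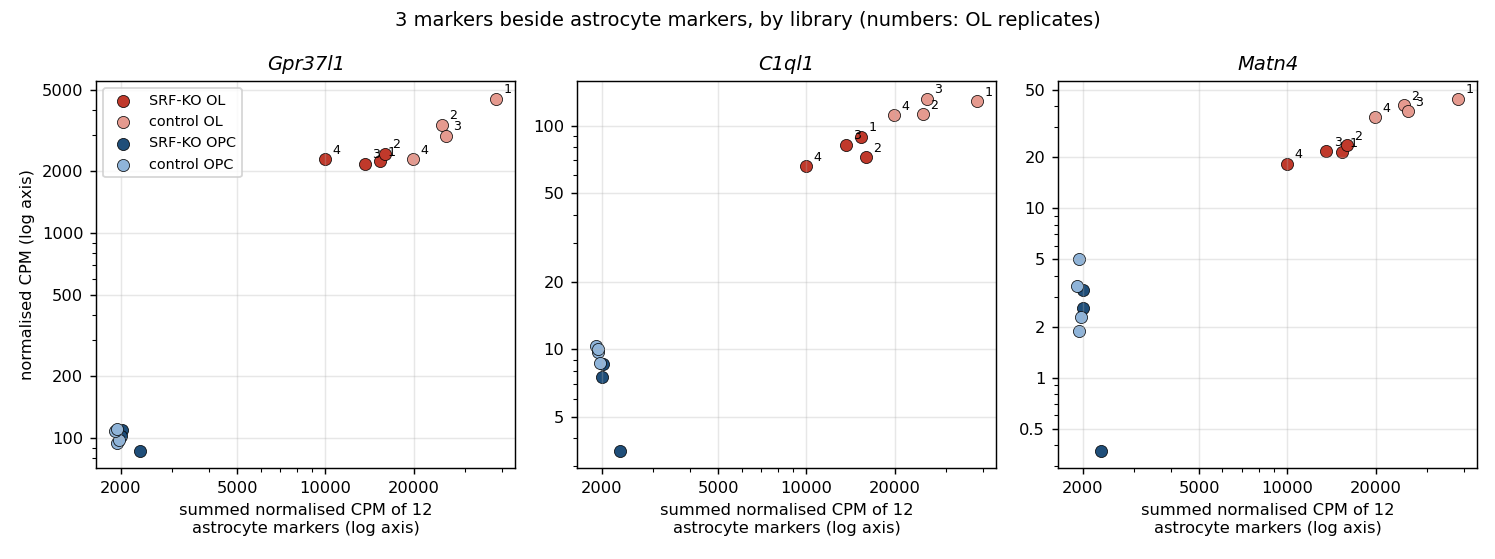
Normalised CPM of Gpr37l1, C1ql1 and Matn4 against the summed normalised CPM of 12 astrocyte markers, one point per library, both axes logarithmic, with OL replicate numbers beside the points. The OPC libraries lie at sums of 1909 to 2315 and the OLs at 10000.4 to 38392, with control OLs above SRF-KO OLs on both axes for Matn4 and C1ql1.

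The difference between the knockout effects of the stages was tested itself. It passed for 0 of the 10 markers by edgeR over all 15 libraries, in a test that called 18 of 16135 genes (0.112%). Virus and remaining Srf as counted also differed between the stages and cannot be told apart from them here. Srf was at 2.37 to 4.54 CPM against 6.61 to 8.47 in control OLs, and at 0.198 to 0.220 against 5.49 to 9.82 in control OPCs. By the listed lengths, counting used whole gene bodies in OLs and spliced transcripts in OPCs. Srf levels are therefore not directly comparable between the stages. DESeq2 called 169 genes and 0 markers, and 2 markers had an unadjusted p under 0.05 in edgeR, against 9.25% of all genes. Cspg4 was one, with an OL effect minus OPC effect of 0.73 ± 0.31 (adjusted p = 0.472), and Pdgfra the other, with 0.48 ± 0.18 (adjusted p = 0.394). The OPC effect of Cspg4 was -0.41, and -0.16 without SRF-KO OPC replicate 2. With each of the 15 libraries left out in turn, the difference was 0.50 to 0.95 for Cspg4 and 0.42 to 0.58 for Pdgfra, called in 0 fits. The 95% interval of the difference was -1.33 to 0.97 for Matn4 and -0.65 to 0.55 for C1ql1. Differences between the stages within these intervals were not excluded at that level.

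Between the stages the markers split into equal parts. In control OLs over control OPCs all 10 passed the edgeR test, 5 lower and 5 higher, in a comparison that called 79.7% of 15027 genes (42.5% higher and 37.1% lower), so the count of calls is not particular to the markers. On library totals the calls were 5119 higher and 6843 lower, in place of 6390 higher and 5580 lower, with the markers' directions as before. SRF-KO OLs over SRF-KO OPCs called 66.6% of 15102 genes (37.6% higher and 28.9% lower) and 9 of the 10 markers, 4 lower and 5 higher. Groups of all 10 markers did not overlap between the stages in either genotype, where 74.4% of all genes in controls and 67.6% in knockouts did not. The stage comparison of controls shares its control OLs with the knockout comparison in OLs, and virus, medium, age in culture and counting method changed with the stage and cannot be told apart from it.

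Pdgfra and Cspg4 fell the most. Pdgfra was at 57.2 to 80.7 CPM in SRF-KO OLs against 431 to 534 in SRF-KO OPCs, and at 54.1 to 59.3 in control OLs against 506 to 536 in control OPCs. It was 6.57-fold lower in OLs with the knockout (log2 -2.72 ± 0.18; adjusted p = 3.56e-07 by edgeR) and 9.21-fold lower in controls (log2 -3.20 ± 0.088; adjusted p = 5.96e-12). Cspg4 was 6.85-fold lower with the knockout (log2 -2.78 ± 0.23) and 11.4-fold lower in controls (log2 -3.51 ± 0.18). Its mean in SRF-KO OPCs was 80.4 CPM, and 94.2 without replicate 2. With each library left out in turn, its log2 difference was -3.02 to -2.64 with the knockout and -3.72 to -3.4 in controls. Cspg5 persisted at a lower level, 2.89-fold lower with the knockout and 2.98-fold lower in controls. Ptprz1 was 1.96-fold lower with the knockout and 2.35-fold lower in controls. Pcdh15 fell in controls by 0.77 on the log2 scale (adjusted p = 0.000137 by edgeR) and was at -0.38 with the knockout (adjusted p = 0.0764).

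Gpr37l1, C1ql1 and Matn4 rose the most. Gpr37l1 was at 2185 to 2443 CPM in SRF-KO OLs against 86.9 to 110 in SRF-KO OPCs, and at 2299 to 4531 in control OLs against 94.7 to 111 in control OPCs. It was 23.2-fold higher with the knockout (log2 4.53 ± 0.19; adjusted p = 2.80e-08 by edgeR) and 32.2-fold higher in controls (log2 5.01 ± 0.20; adjusted p = 1.10e-10). C1ql1 was 12.1-fold higher with the knockout and 12.6-fold higher in controls, and Matn4 10.9-fold higher with the knockout and 12.5-fold higher in controls. Without SRF-KO OPC replicate 2 the log2 difference of Matn4 with the knockout was 2.85 (adjusted p = 1.69e-05 by edgeR), in place of 3.44 with all libraries, and that of C1ql1 was 3.26. The 12 astrocyte markers, whose sums are given above, were also higher in OLs: 10 passed the test higher and 2 lower in control OLs over control OPCs. Their part in the rise of Gpr37l1, C1ql1 and Matn4 was not tested. Vcan was 1.84-fold higher with the knockout (adjusted p = 0.00218 by edgeR) and 1.70-fold higher in controls (adjusted p = 2.41e-05).

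Stage differences also varied with how much longer a gene was listed in OL than in OPC files. The listed length of Lhfpl3 was 80.7 times greater in OL than in OPC files and that of Pcdh15 37.1 times, against 1.88 times for Cspg5. With the tested genes ranked by this ratio and cut into 10 equal bins, both lie in the top bin, whose median stage difference was 1.00 in knockouts and 0.92 in controls, where the median of all genes was 0.12 in knockouts and 0.10 in controls. The bottom bin, with ratios of no more than 1 and no marker in it, had the largest medians, 3.74 in knockouts and 3.57 in controls. The cause of that shift was not tested. Lhfpl3 was at 1.06 with the knockout and 1.27 in controls. Once the median of its bin was subtracted, it was at 0.06 with the knockout (adjusted p = 0.780) and at 0.35 in controls (adjusted p = 0.00604). Pcdh15 moved the other way, to -1.38 with the knockout (adjusted p = 4.42e-05) and to -1.69 in controls (adjusted p = 7.34e-08). The other 8 markers, whose bins had medians of -0.25 to 0.09, moved by no more than 0.25 and kept their calls and directions. With that trend removed, 5 markers were lower and 4 higher with the knockout, and 5 lower and 5 higher in controls.

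**Figure D5:**
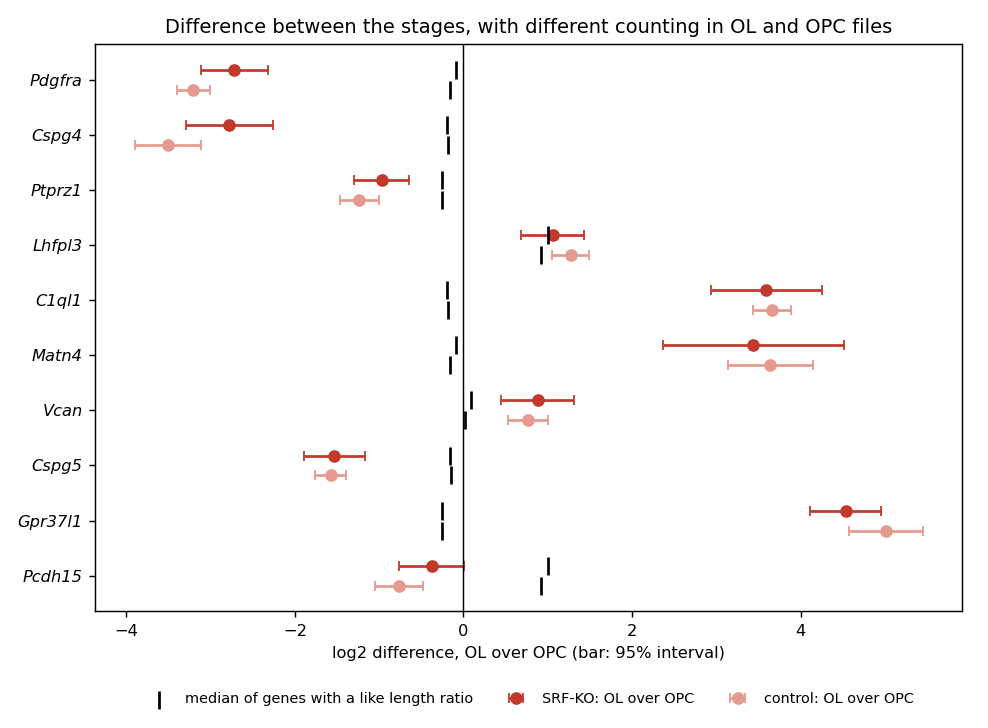
Log2 difference of OLs over OPCs for each marker with 95% intervals from edgeR, with the knockout (dark, upper) and in controls (light, lower). Black ticks give the median difference of all genes in the same of 10 bins by the ratio of listed lengths, near 1 for Lhfpl3 and Pcdh15 and between -0.25 and 0.09 for the others.

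The genes that act with the markers were described from lists. PDGF ligands and the receptor Pdgfrb counted 0 of 5 tested in OLs and 0 of 2 tested in OPCs past the edgeR test for the knockout. Pdgfa, which encodes the ligand that OPCs depend on, averaged 14.8 ± 5.30 CPM in SRF-KO OLs and 16.8 ± 1.36 in control OLs, and 11.3 ± 1.54 in SRF-KO OPCs and 8.55 ± 1.47 in control OPCs. In controls 4 of 4 of these genes tested were higher in OLs than in OPCs, where 42.5% of all genes were called higher, with Pdgfa at 0.97 ± 0.15 on the log2 scale (adjusted p = 6.45e-05 by edgeR) and Pdgfc at 0.78 ± 0.21 (adjusted p = 0.00379).

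Among other chondroitin sulfate proteoglycan core proteins, 0 of 11 tested in OLs and 0 of 9 in OPCs passed the test for the knockout. The most abundant were Ncan and Bcan, the brain lecticans related to Vcan. Ncan averaged 637 ± 218 CPM in SRF-KO OLs and 1339 ± 79.4 in control OLs, with no overlap, but the log2 fold change of -1.05 ± 0.23 had an adjusted p of 0.114 by edgeR. Bcan averaged 380 ± 149 CPM in SRF-KO OLs and 928 ± 340 in control OLs (log2 -1.27 ± 0.33; adjusted p = 0.171). Of the enzymes that build chondroitin sulfate, 0 of 19 tested in OLs and 0 of 20 in OPCs passed. Chpf, a chondroitin polymerising factor, had a log2 fold change of -0.37 ± 0.16 in OLs (adjusted p = 0.409), and Chst11, a chondroitin 4-sulfotransferase, 0.10 ± 0.12 (adjusted p = 0.825). Between control OLs and control OPCs, 7 of these enzymes were higher and 9 lower of 20 tested, a share of calls near the 79.7% of all genes.

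Ligands and partners of the markers gave 0 calls of 13 tested in either stage. Ptn, the pleiotrophin that binds the Ptprz1 protein, averaged 722 ± 58.2 CPM in SRF-KO OLs and 754 ± 83.3 in control OLs. Psap, the precursor of prosaposin peptides, averaged 922 ± 156 CPM in SRF-KO OLs and 1304 ± 287 in control OLs (log2 -0.47 ± 0.21; adjusted p = 0.407 by edgeR). Paralogues of the markers gave 0 calls of 9 tested in either stage. Lhfpl2 was at -0.82 ± 0.30 in OLs (adjusted p = 0.322), and Ptprg at 0.03 ± 0.14 (adjusted p = 0.970). Of the proteases that cut marker proteins, 1 of 9 tested in OLs passed and 0 of 9 in OPCs. That was Mmp2, a gelatinase, which rose to 7.13 to 13.2 CPM in SRF-KO OLs, against 1.24 to 2.51 in control OLs (log2 2.57 ± 0.27; adjusted p = 0.00463 by edgeR). Mmp2 was at 22.3 to 24.7 CPM in SRF-KO OPCs and 13.5 to 19.7 in control OPCs (log2 0.53 ± 0.16, adjusted p = 0.263 by edgeR). The difference between these knockout effects passed its own test (2.04 ± 0.32, adjusted p = 0.0135 by edgeR), with virus and remaining Srf as counted differing between the stages as well. Over control OPCs, control OLs had less Mmp2 (log2 -3.17 ± 0.23), a fall of the size of that of Pdgfra.

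The OPC state was also read from genes outside the marker set. Of 15 OPC transcription factors and 16 other OPC-enriched genes, 0 passed in either knockout comparison. Olig1 averaged 1403 ± 155 CPM in SRF-KO OLs and 2198 ± 573 in control OLs (log2 -0.62 ± 0.21, adjusted p = 0.291 by edgeR). In OPCs Olig1 averaged 2680 ± 458 CPM with the knockout and 3257 ± 148 in controls (log2 -0.26 ± 0.11, adjusted p = 0.394 by edgeR). Olig2 averaged 299 ± 74.8 CPM in SRF-KO OLs and 403 ± 84.8 in control OLs, and 597 ± 103 in SRF-KO OPCs and 822 ± 71.7 in control OPCs (log2 -0.44 ± 0.12 in OPCs; adjusted p = 0.244 by edgeR). Of the 16 other OPC-enriched genes, 10 were higher and 5 lower in control OLs than in control OPCs, against 42.5% of all genes called higher and 37.1% lower. All 16 cell-cycle genes were lower in control OLs, with a median of -3.88 on the log2 scale, and so were all 16 in SRF-KO OLs over SRF-KO OPCs (median -3.44). For the knockout, 0 of the 16 passed in either stage. In OLs all 16 had positive fold changes (median 0.28, against 0.02 for all genes). In OPCs 15 were negative and 1 positive (median -0.10). The part of cell-cycle genes in the differences of the markers was not tested. All 15 myelin genes tested and all 15 newly formed OL genes tested were higher in control OLs over control OPCs. For the knockout in OLs, 1 of 15 myelin genes passed, Opalin, at 4.89 to 8.71 CPM in SRF-KO OLs and 12.7 to 16.7 in control OLs (log2 -1.37 ± 0.21; adjusted p = 0.0228 by edgeR), and 0 of 15 newly formed OL genes did.

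Likeness of pattern was measured as the root-mean-square difference of log2 CPM, each gene centred over the 15 libraries, among 8470 genes with an average log2 CPM of at least 3 in both stages. It is a description, which the contrast of the stages dominates. Pdgfra was most like Kif20a (0.14), Etv5 (0.16) and Ckap2l (0.16). Kif20a averaged 18.7 CPM in SRF-KO OLs, 16.4 in control OLs, 147 in SRF-KO OPCs and 150 in control OPCs. Cspg4 was most like Incenp (0.24), Cad (0.24) and Mmp15 (0.30). Distances between markers were taken over all 10, Matn4 included, which lies below that level in OPCs. The closest were Lhfpl3 and Vcan (0.24), then Ptprz1 and Cspg5 (0.28), Pcdh15 and Ptprz1 (0.31), Pdgfra and Cspg4 (0.39), and C1ql1 and Matn4 (0.42). Gpr37l1 was the farthest from its nearest marker, C1ql1 (0.68).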

How the data were processed

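PolyA RNA of 15 samples was made into Smart-seq2 libraries and sequenced as single reads of 63 bases, per the labels' protocols. Per the submitters' processing notes, the authors used bcl2fastq, STAR and RSEM and named the builds GRCm38 and Rnor_6.0; versions and roles are not given in the sources used here. Each deposited file is an RSEM table of 45706 mouse genes, of which 45143 matched a symbol. Its expected counts are the authors' estimates of reads per gene, its TPM values the authors' per-length scaling of them, and its deposited FPKM values were not used. The deposited lengths, lists of transcript identifiers and effective lengths served only to check the counting, which used spliced transcripts in OPC files and whole gene bodies in OL files, as inferred from those lengths.

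For tests, expected counts were rounded to whole numbers and fitted in R 4.3.3 by edgeR 4.0.16 (low-count filter by filterByExpr, trimmed mean of M-values scaling, quasi-likelihood F-test, Benjamini-Hochberg adjustment at 0.05 over all genes tested, 95% intervals from the moderated degrees of freedom). Each stage was fitted alone for the knockout, each genotype alone for the stage, and all 15 libraries for the difference between knockout effects. All 10 markers passed the low-count filter in every fit. Each SE was derived from the fold change and its F statistic (|log2 fold change|/√F). Normalised CPM is scaled over the 15 libraries. Exact permutation tests used log2 CPM with a prior count of 2. The tests were checked on simulated counts with 200 genes changed. Alternatives were DESeq2 1.42.0, other scalings, no filter, each library left out, a replicate block, a prior count of 0.5 and removal of the trend with the length ratio. Same-numbered libraries did not deviate together (correlations of -0.281 to 0.0264 in OLs and -0.0157 to 0.0490 in OPCs), so numbers were not taken as pairs.

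The markers and the 17 gene lists, with 218 of 219 symbols matched, were chosen with earlier results of these data known. From each other list the members past the threshold in a knockout comparison or in the difference of knockout effects were picked (at most 5), otherwise the 2 most abundant. Not every picked gene is named, and some are given with values of fewer comparisons. Gjb6, Slc1a3, Sox9 and Csf1r were named outside this rule. Precision is limited by 3 or 4 libraries a group, and intervals cover the spread of these libraries only. Promoter windows came from RefSeq on GRCm38.p6. One microglia marker, and the summed level of that list, are not reported here.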

Additional observations from a re-analysis of the deposited data

How the results depend on the processing

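Over the alternatives other than leaving out a library, 239 values kept direction and side of the threshold. Counts of genes called moved with the tool and the filter: in SRF-KO over control OPCs, 139 by DESeq2 and 101 without a filter; in SRF-KO over control OLs, 299 by DESeq2, 129 without a filter and 74 on library totals; and for the difference between knockout effects, 169 by DESeq2 and 88 without a filter. On library totals the calls were 6 higher and 7 lower in OPCs (3 and 6 by trimmed-mean scaling) and 11 and 11 for the difference between effects (7 and 11). Markers called in OLs numbered 2 by DESeq2 and 0 on library totals. On that scale, where the median gene was at 0.24 in OLs and 0.22 for the difference between effects, Lhfpl3 was at 0.04 and Vcan at 0.19 in OLs, and the difference between effects was 0.16 for C1ql1 and 0.03 for Matn4, all opposite in sign to the values reported. The cause was not tested.

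With the replicate number as a replicate block, 2 genes were called in OPCs and 5 in OLs, 0 of them markers; Matn4 was at -0.86 (adjusted p = 0.169 by edgeR) and Gpr37l1 in OPCs at 0.00, a change of sign. The numbers did not pair the libraries, and not every library correlated best with its own number.

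Leaving out each library gave 1 to 4 called genes in OPCs, 7 to 636 in OLs with 0 to 3 markers, 11739 to 12137 between control stages, 8946 to 11049 between knockout stages with 9 to 10 markers, and 4 to 134 for the difference between effects. The 636 and the 134 came without SRF-KO OL replicate 4. Changes of sign occurred in OPCs for Ptprz1 (-0.02 to 0.10), Lhfpl3 (-0.04 to 0.08), Vcan (-0.24 to 0.02), Cspg5 (-0.12 to 0.08), Gpr37l1 (-0.12 to 0.08) and Pcdh15 (-0.04 to 0.08), in OLs for Vcan (-0.09 to 0.09) and Cspg5 (-0.02 to 0.04), and in the difference between effects for C1ql1 (-0.39 to 0.20), Matn4 (-0.78 to 0.38), Vcan (-0.02 to 0.23) and Cspg5 (-0.06 to 0.10). None of these was past the threshold. Pcdh15 between knockout stages passed without SRF-KO OL replicate 4 (adjusted p = 0.0166 by edgeR) and on library totals (-0.51; adjusted p = 0.0242). Matn4 rests on few reads in OPCs and Cspg4 on few in OLs, which limits what those comparisons can show.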
